A study of Homo sapiens with 4 samples.

Results

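The genes described here are the nuclear genes of oxidative phosphorylation in SW1990 cells treated with gomisin G. They were chosen by name: protein-coding genes whose symbol starts with NDUF, UQCR, COX4 to COX8 or ATP5, together with SDHA, SDHB, SDHC, SDHD and CYC1, with hyphenated read-through names left out. This gave 98 of the 58735 genes in the count table. SW1990 is an established human pancreatic cancer line, and all values come from that 1 line, with no further genotype given. Cells received 10 µM gomisin G, a lignan of Schisandra fruit, for 24 h (2 libraries) or vehicle for 24 h (2 libraries), and the series title names the Hippo-YAP pathway as its subject. The make-up of the vehicle, and whether replicates came from separate cultures, are not given in the sources used here. The p-values therefore describe variation among these 4 libraries, part of which may be technical.

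Oxidative phosphorylation takes place in the inner mitochondrial membrane. Complex I accepts electrons from NADH and complex II accepts them from succinate, both pass them to ubiquinone, complex III hands them on to cytochrome c, and complex IV delivers them to oxygen. The proton gradient built on the way drives complex V, the ATP synthase. The mitochondrial genome encodes a small core of subunits of complexes I, III, IV and V, whereas all remaining subunits, and all of complex II, are made from the nuclear genes. By complex, the 98 genes held 37 subunits of complex I, 4 of complex II, 9 of complex III, 11 of complex IV and 17 of complex V. A further 11 encode assembly or regulatory factors, and 9 are tissue-restricted isoforms or gene copies.

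Total counts were 15034663 and 15245770 in gomisin G replicates 1 and 2 and 14580848 and 14901526 in vehicle replicates 1 and 2. The gomisin G pair differed more between its replicates than the vehicle pair did, at a chi-square of 37.2 per gene with gomisin G and 6.98 with vehicle. Levels below are counts scaled to library size (CPM), and a gene at 0 counts has a floor of 0.189 to 0.207 CPM (3 counts, counting error only). The labelled cell type was checked by its markers. The 8 epithelial markers summed to 9813 and 7393 CPM with gomisin G and 11420 and 9620 CPM with vehicle, with KRT8, a keratin of simple epithelium, the most abundant. KRT8 was at 4790 and 3663 CPM with gomisin G, against 6572 and 5332 CPM with vehicle (log2 change -0.49, adjusted p = 0.306 by edgeR). The least abundant of the 8 was at 0.875 to 2.07 CPM. Of the 8 markers, 5 had a positive log2 change and 3 a negative one. Of these CLDN4, a tight junction claudin, rose, at 472 and 383 CPM with gomisin G, against 182 and 186 CPM with vehicle (log2 change 1.22, adjusted p = 0.0233), although its adjusted p was 0.170 and 0.151 with vehicle replicate 1 or 2 left out. The 7 fibroblast markers summed to 8.57 and 12.0 CPM with gomisin G and 4.69 and 4.91 CPM with vehicle, from COL1A1 and PDGFRB, while COL1A2 and LUM had 0 counts. The 5 leukocyte markers summed to 4.67 to 6.26 CPM over all libraries, mainly from CD14, with PTPRC and CD3E at 0. The 3 endothelial markers summed to 0.207 to 0.966 CPM. Over all 15721 tested genes, edgeR's quasi-likelihood test called 287 at a Benjamini-Hochberg adjusted p below 0.05, of which 145 rose and 142 fell.

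Messenger RNA of the nuclear oxidative phosphorylation genes was somewhat more abundant in 1 of the 2 gomisin G libraries, and no single gene passed the test. Of the 98 genes, 91 passed the expression filter, and edgeR called 0 of them in either direction, where 1.83% of all tested genes were called (0.922% higher and 0.903% lower). DESeq2 and limma voom also called 0, where they called 5.62% and 1.58% of all tested genes, and the lowest edgeR adjusted p was 0.191, for NDUFB2. Before adjustment, p was below 0.05 in 4 of these genes, all higher with gomisin G, and in 20.6% of all tested genes (10.9% higher). The log2 change (gomisin G over vehicle) was positive in 77 and negative in 14 of the 91, with a median of 0.26, while 50.7% of all tested genes were positive with a median of 0.01. With 2 libraries a group, an exact two-sided permutation test of 1 gene cannot go below p = 0.333, so none was used. In bulk libraries, a difference in the cells that contribute RNA and one in RNA per cell cannot be told apart.

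The 2 gomisin G libraries did not share this shift. Summed over the 98 genes, the level was 11040 CPM in gomisin G replicate 1 and 7819 CPM in replicate 2, against 8500 and 7721 CPM in vehicle replicates 1 and 2. Gomisin G replicate 1 stood alone, and replicate 2 lay between the vehicle libraries. Measured against the vehicle mean as log2(CPM + 0.5), the median gene was at 0.53 and -0.05 in gomisin G replicates 1 and 2, against 0.12 and -0.12 in vehicle replicates 1 and 2. Vehicle replicate 1 exceeded vehicle replicate 2 in 79 of the 91 genes and in 50.1% of all tested genes. Of the 91 genes, 86 were above the vehicle mean in gomisin G replicate 1 and 34 in replicate 2, whereas over all tested genes these shares were 49.7% and 50.8%. Gomisin G replicate 1 was the highest of the 4 libraries for 79 of the 91 genes, as it was for 34% of all tested genes. Both gomisin G libraries lay above both vehicle libraries for 13 genes (14.3%) and below both for 3, and the groups overlapped for 75. Over all tested genes 54.2% were separated, with 27% above and 27.3% below, so separation of the groups was not more common among these genes than in the background. Without gomisin G replicate 1 the median log2 change was -0.06 and 4 genes were called lower (ATP5PB, NDUFAB1, NDUFAF8 and SDHD), where 8.85% of all tested genes were. When gomisin G replicate 2 was left out instead, the median was 0.51, with 64 genes called higher and NDUFV2 called lower, where 18.5% and 20.1% of all tested genes were. Those fits take their spread from the vehicle pair, and the lone gomisin G library is assumed to vary like it.

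**Figure D1:**
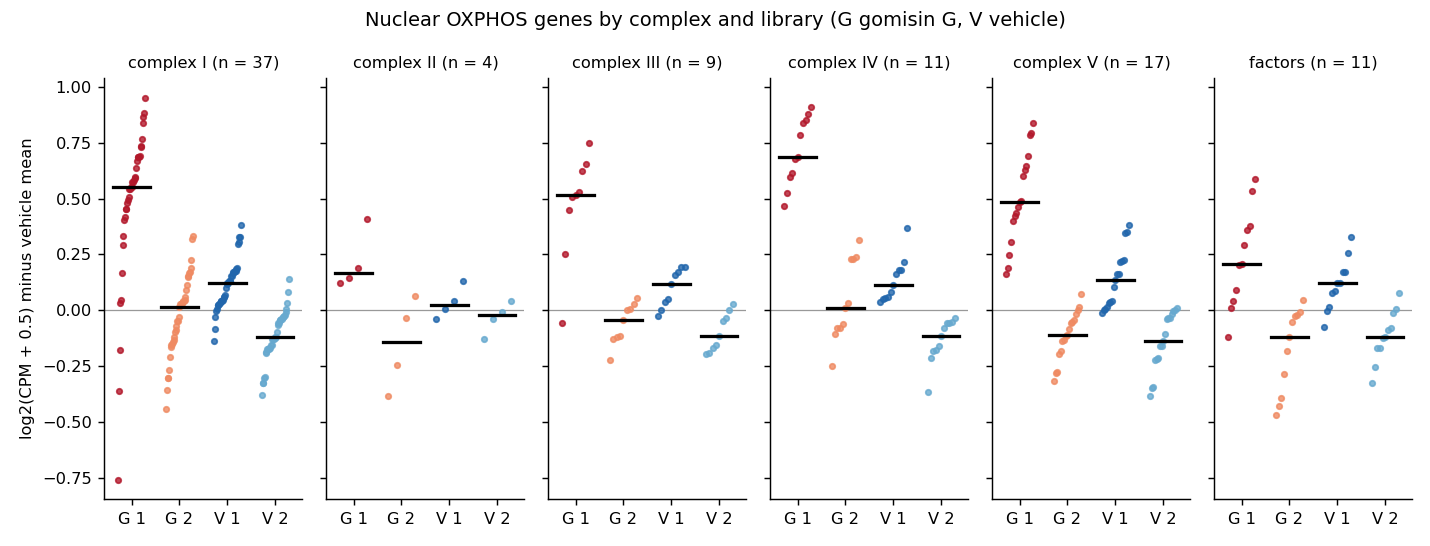
Difference of each tested gene from the vehicle mean, as log2(CPM + 0.5), in gomisin G (G 1, G 2) and vehicle (V 1, V 2) libraries, with 1 point per gene and a bar at the median of each library. The complex IV medians are 0.69 (G 1) and 0.01 (G 2), whereas complex II and the assembly and regulatory factors sit lower, at 0.17 and 0.21 in G 1; the 2 tested tissue isoforms are not drawn.

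Complex I is the largest of the complexes, and its core subunits carry the flavin and the iron-sulfur clusters that move electrons from NADH to ubiquinone. The 37 genes summed to 2694 and 1860 CPM with gomisin G, against 2020 and 1779 CPM with vehicle. The 7 core subunits had a median log2 change of 0.23, with 5 positive and 2 negative. NDUFV1, which binds NADH and the flavin, was at 188 and 143 CPM in gomisin G replicates 1 and 2, against 154 and 128 CPM in vehicle replicates 1 and 2. NDUFS8, an iron-sulfur subunit, was at 208 and 139 CPM with gomisin G, against 127 and 123 CPM with vehicle. Its groups did not overlap, but gomisin G replicate 2 lay closer to the vehicle values than replicate 1 did. The log2 change of NDUFS8 was 0.47 (SE 0.21, 95% interval -0.01 to 0.95, adjusted p = 0.250), and that of NDUFV1 was 0.23 (adjusted p = 0.510), both by edgeR. NDUFS1, the largest iron-sulfur subunit, was placed the other way, at 130.5 and 139 CPM with gomisin G, against 144 and 151 CPM with vehicle, with a log2 change of -0.13 (SE 0.15, 95% interval -0.48 to 0.21, adjusted p = 0.642). With the gene length trend removed its log2 change was 0.11. NDUFV2, an iron-sulfur subunit next to NDUFV1, had the lowest log2 change of all 91 tested genes. It was counted at only 2.69 and 4.36 CPM with gomisin G, against 4.42 and 5.45 CPM with vehicle, for a log2 change of -0.48 (SE 0.32, 95% interval -1.21 to 0.25, adjusted p = 0.419). All coding bases of NDUFV2 are shared with an overlapping annotated transcript on the same strand, so its count is uncertain.

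The 30 accessory subunits of complex I surround the core, some in the membrane arm and some in the peripheral arm. Their median log2 change was 0.30, with 26 positive and 4 negative, and gomisin G replicates 1 and 2 had median differences of 0.58 and -0.01 from the vehicle mean. NDUFB2, a small subunit of the membrane arm (GRCh38, chromosome 7, 140690777 to 140722790), was at 125 and 78.8 CPM in gomisin G replicates 1 and 2, against 68.5 and 66.2 CPM in vehicle replicates 1 and 2. Both gomisin G values were above both vehicle values, and replicate 1 supplied most of the difference. The log2 change was 0.60 (SE 0.22, 95% interval 0.08 to 1.11, adjusted p = 0.191). NDUFA11, also in the membrane arm, had the highest log2 change in the complex at 0.65 (adjusted p = 0.253). Its values were 33.5 and 21.4 CPM with gomisin G, against 21.5 and 13.5 CPM with vehicle, so gomisin G replicate 2 lay just below vehicle replicate 1 and the groups overlapped. NDUFA2, an accessory subunit of the peripheral arm, was at 50.6 and 31.1 CPM with gomisin G, against 29.6 and 25.7 CPM with vehicle, with a log2 change of 0.56 (adjusted p = 0.245) and groups that did not overlap. NDUFAB1, the mitochondrial acyl carrier protein, was at 115 and 68.5 CPM with gomisin G, against 102 and 85.8 CPM with vehicle. Its gomisin G values lay on either side of both vehicle values, and the log2 change was -0.03 (adjusted p = 0.954). NDUFA5 and NDUFA10 were also slightly negative, at -0.15 and -0.09, and NDUFA13 was at -0.07 on 3.94 to 5.93 CPM.

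Complex II, succinate dehydrogenase, also works in the tricarboxylic acid cycle and has no subunit encoded by the mitochondrial genome. Its 4 genes summed to 563 and 462 CPM with gomisin G, against 497 and 477 CPM with vehicle, and had a median log2 change of 0.02. SDHA, the flavoprotein that oxidises succinate, was at 260.0 and 233 CPM in gomisin G replicates 1 and 2, against 246 and 232 CPM in vehicle replicates 1 and 2. The 4 libraries of SDHA lay close together, and the log2 change was 0.04 (SE 0.16, 95% interval -0.32 to 0.41, adjusted p = 0.900). SDHB, the iron-sulfur subunit, was at 82.1 and 60.5 CPM with gomisin G, against 69.9 and 74.0 CPM with vehicle, with a log2 change of -0.01 (adjusted p = 0.977) that became 0.05 with upper-quartile factors. The membrane anchors SDHC and SDHD lay on opposite sides of 0. SDHC was at 162 and 128 CPM with gomisin G, against 123 and 122 CPM with vehicle, above the vehicle libraries in both gomisin G libraries, with a log2 change of 0.24 (SE 0.17, 95% interval -0.15 to 0.64, adjusted p = 0.444). SDHD was at 58.4 and 40.4 CPM with gomisin G, against 57.9 and 48.3 CPM with vehicle, with a log2 change of -0.10 (SE 0.21, 95% interval -0.60 to 0.39, adjusted p = 0.816) and its lowest value in gomisin G replicate 2. SDHD shares 65.8% of its coding bases with another gene model on the same strand that had at most 3 counts.

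Complex III passes electrons from ubiquinol to cytochrome c through cytochrome c1 (CYC1) and the Rieske iron-sulfur protein (UQCRFS1). Its 9 genes summed to 1643 and 1168 CPM with gomisin G, against 1281 and 1180 CPM with vehicle. CYC1 was at 308 and 236 CPM in gomisin G replicates 1 and 2, against 266 and 252 CPM in vehicle replicates 1 and 2, and UQCRFS1 at 193 and 129.8 CPM with gomisin G, against 146 and 136 CPM with vehicle. In both, gomisin G replicate 1 was the highest library and replicate 2 the lowest, which left a log2 change of 0.07 (adjusted p = 0.854) for CYC1 and of 0.19 (adjusted p = 0.629) for UQCRFS1. The core proteins UQCRC1 and UQCRC2, relatives of mitochondrial processing peptidases that frame the complex, were placed on opposite sides of vehicle. UQCRC1 was at 401 and 287 CPM with gomisin G, against 282 and 282 CPM with vehicle, and both gomisin G libraries were above vehicle. UQCRC2 was at 174 and 155 CPM with gomisin G, against 178 and 184 CPM with vehicle, and both were below. The log2 changes were 0.29 (SE 0.20, 95% interval -0.17 to 0.74, adjusted p = 0.435) and -0.14 (SE 0.15, 95% interval -0.50 to 0.22, adjusted p = 0.635), and the difference between these genes was not tested. Among the small subunits, UQCRQ had the highest log2 change, 0.43 (adjusted p = 0.345), at 159 and 98.2 CPM with gomisin G, against 106 and 84.0 CPM with vehicle. UQCRH, the hinge protein, was at 162 and 96.8 CPM with gomisin G, against 117 and 93.9 CPM with vehicle, with a log2 change of 0.29 (adjusted p = 0.531). The 7 subunits other than CYC1 and UQCRFS1 had a median log2 change of 0.29, with 6 positive, against 0.13 for that pair.

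Complex IV, cytochrome c oxidase, has its catalytic core from the mitochondrial genome and a shell of small nuclear subunits around it. They summed to 1744 and 1099 CPM with gomisin G, against 1165 and 987 CPM with vehicle. The 11 nuclear subunits had the highest median log2 change of the complexes, 0.39, and all 11 were positive (0.21 to 0.61). That median depended on 1 library. Gomisin G replicates 1 and 2 had median differences of 0.69 and 0.01 from the vehicle mean, and the median log2 change was -0.003 when the first of these was left out. Of the 4 genes with a p below 0.05 before adjustment, 3 are in this complex. Over all tested genes, 10.9% were higher at that threshold. COX6A1 (chromosome 12, 120438090 to 120440742), the broadly expressed form of subunit 6A, was at 74.3 and 50.2 CPM in gomisin G replicates 1 and 2, against 46.8 and 34.6 CPM in vehicle replicates 1 and 2. COX6B1 (chromosome 19, 35648223 to 35658861), which faces the intermembrane space, was at 178 and 117 CPM with gomisin G, against 108 and 92.0 CPM with vehicle. COX5B (chromosome 2, 97646040 to 97648383), the zinc-binding subunit, was at 138 and 93.7 CPM with gomisin G, against 90.6 and 70.5 CPM with vehicle. In these 3 genes both gomisin G libraries lay above both vehicle libraries, with replicate 1 far above and replicate 2 just above. They were 27.3% of the 11 subunits, and 27% of all tested genes were separated in this way, so such separation was no more common here. The log2 changes were 0.61 (SE 0.24, 95% interval 0.07 to 1.16, adjusted p = 0.201), 0.56 (SE 0.22, 95% interval 0.05 to 1.07, adjusted p = 0.207) and 0.52 (SE 0.22, 95% interval 0.01 to 1.04, adjusted p = 0.237). COX8A, one of the smallest subunits, had a similar log2 change of 0.57 (adjusted p = 0.308), but its values of 128 and 80.2 CPM with gomisin G, against 87.6 and 52.5 CPM with vehicle overlapped.

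The remaining complex IV subunits showed gomisin G replicate 1 above and replicate 2 within or near the vehicle values. COX4I1, the largest nuclear subunit and the one that binds ATP, was at 363 and 232 CPM with gomisin G, against 232 and 221 CPM with vehicle, a log2 change of 0.39 (SE 0.22, 95% interval -0.13 to 0.91, adjusted p = 0.353). COX5A was at 159 and 106 CPM with gomisin G, against 114 and 106 CPM with vehicle, a log2 change of 0.26 (adjusted p = 0.507). COX7A2 was at 124 and 77.6 CPM with gomisin G, against 85.3 and 78.9 CPM with vehicle, and COX7B at 68.1 and 37.2 CPM with gomisin G, against 46.1 and 42.5 CPM with vehicle. The log2 change was 0.30 (adjusted p = 0.484) for COX7A2 and 0.25 (adjusted p = 0.628) for COX7B, and in both genes gomisin G replicate 2 was the lowest library. COX7C had a log2 change of 0.35 and COX6C one of 0.48. NDUFA4, first assigned to complex I and now counted as a complex IV subunit, was at 109 and 73.1 CPM with gomisin G, against 83.1 and 74.4 CPM with vehicle. Its log2 change of 0.21 (adjusted p = 0.603) was the lowest of the complex.

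The promoters of the 4 genes whose p was below 0.05 before adjustment are shown with that of SDHA, whose 4 libraries lay close together, to show what the regulatory sequence of such genes looks like. Each window runs from 200 bases before to 20 bases after the annotated start (RefSeq, GRCh38.p14, all on the plus strand): COX6A1 chr12:120437913-120438132, COX6B1 chr19:35648123-35648342, COX5B chr2:97645862-97646081, NDUFB2 chr7:140696508-140696727 and SDHA chr5:218120-218339. Capitals mark matches, on either strand, to CCGGAAG (bound by ETS factors such as GABPA) or GCGCNTGCGC (bound by NRF1).
COX6A1: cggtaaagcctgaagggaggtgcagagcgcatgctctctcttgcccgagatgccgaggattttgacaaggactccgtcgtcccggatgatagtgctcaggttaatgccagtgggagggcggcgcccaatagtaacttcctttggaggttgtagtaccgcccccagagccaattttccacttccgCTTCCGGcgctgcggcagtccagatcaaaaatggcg
COX6B1: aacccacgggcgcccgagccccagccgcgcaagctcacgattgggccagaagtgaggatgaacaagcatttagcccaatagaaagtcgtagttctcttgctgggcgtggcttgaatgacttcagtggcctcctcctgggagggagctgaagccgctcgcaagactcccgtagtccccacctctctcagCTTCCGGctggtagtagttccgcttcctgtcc
COX5B: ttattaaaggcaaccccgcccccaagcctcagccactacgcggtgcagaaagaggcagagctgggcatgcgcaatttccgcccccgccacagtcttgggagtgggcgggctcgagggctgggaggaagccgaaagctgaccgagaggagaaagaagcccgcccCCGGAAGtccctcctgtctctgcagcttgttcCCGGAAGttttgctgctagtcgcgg
NDUFB2: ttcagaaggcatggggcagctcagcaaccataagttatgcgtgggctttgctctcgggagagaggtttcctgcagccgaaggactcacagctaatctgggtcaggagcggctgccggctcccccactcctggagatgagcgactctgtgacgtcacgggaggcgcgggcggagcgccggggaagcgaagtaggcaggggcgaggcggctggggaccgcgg
SDHA: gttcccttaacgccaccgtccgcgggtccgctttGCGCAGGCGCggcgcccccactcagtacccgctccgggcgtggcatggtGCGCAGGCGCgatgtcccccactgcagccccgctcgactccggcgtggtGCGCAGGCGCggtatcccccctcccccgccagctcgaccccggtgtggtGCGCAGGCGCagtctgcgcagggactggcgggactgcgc

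COX6A1 and COX6B1 each held 1 ETS match, starting at -16 and -12 from the annotated start, and COX5B held 2, at -37 and -5. NDUFB2 held no match to either motif in its window, which lies within the gene span given above (from 140690777). The sequence before that first base was not searched. SDHA held 4 NRF1 matches, at -166, -117, -68 and -19, each with the same letters. Windows of 300 bases were found for 77 of the 98 genes by symbol. The ETS letters occurred in 27.3% of these windows and in 10.7% of all 27305 promoters, the NRF1 letters in 23.4% and 6.28%, and AAGATGG, bound by YY1, in 20.8% and 6.06%. By complex, the ETS letters were in 5 of 32 windows of complex I, 2 of 3 of complex II, 3 of 7 of complex III, 5 of 9 of complex IV and 5 of 13 of complex V. The NRF1 letters were in 0 of the complex IV windows, 4 of 7 of complex III and 2 of 3 of complex II. Both strands were searched, and ETS and YY1 or NRF1 matches can lie in the same window. Tested genes with the ETS letters had a median log2 change of 0.35 (n = 21) and those without had 0.24 (n = 52). Their quartiles overlapped, at 0.08 and 0.48 with the letters and 0.09 and 0.34 without. For the NRF1 letters the medians were 0.27 (n = 17) and 0.25 (n = 56), and for the YY1 letters 0.26 (n = 16) and 0.25 (n = 57). A match is only a match of letters, and these medians are a description with no test.

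Complex V couples proton flow through its membrane part, Fo, to ATP synthesis in the F1 head. Its 17 genes summed to 3915 and 2879 CPM with gomisin G, against 3121 and 2950 CPM with vehicle. All 17 had a positive log2 change (0.02 to 0.48), with a median of 0.17 that became -0.12 without gomisin G replicate 1. The 5 genes of F1, its head and central stalk, had a median log2 change of 0.12. ATP5F1B, the catalytic beta subunit, was at 1106 and 916 CPM in gomisin G replicates 1 and 2, against 969.8 and 971 CPM in vehicle replicates 1 and 2. ATP5F1A, the alpha subunit, was at 846 and 706 CPM with gomisin G, against 708 and 719.5 CPM with vehicle. Replicate 1 was above and replicate 2 below the vehicle mean in both genes, for log2 changes of 0.06 (SE 0.19, 95% interval -0.38 to 0.50, adjusted p = 0.888) and 0.12 (SE 0.18, 95% interval -0.30 to 0.54, adjusted p = 0.745). ATP5F1C, the gamma subunit of the rotor, had the lowest log2 change of the complex, 0.02 (adjusted p = 0.958), at 167 and 136 CPM with gomisin G, against 151 and 148 CPM with vehicle. ATP5F1E, the small epsilon subunit, was at 103 and 64.6 CPM with gomisin G, against 85.5 and 63.0 CPM with vehicle, with a log2 change of 0.17 (adjusted p = 0.732). ATP5F1D, the delta subunit, had the highest log2 change of F1, 0.37 (adjusted p = 0.415).

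The 12 genes of Fo and the peripheral stalk had a median log2 change of 0.25. Subunit c, which forms the rotating ring, is encoded by 3 genes whose mature proteins are the same. ATP5MC1 was at 93.8 and 58.3 CPM with gomisin G, against 74.7 and 59.7 CPM with vehicle. ATP5MC2 was at 143 and 88.8 CPM with gomisin G, against 94.6 and 90.2 CPM with vehicle. ATP5MC3 was at 285 and 189 CPM with gomisin G, against 192 and 183 CPM with vehicle. Per length ATP5MC3 was the most abundant, at 282 CPM per kilobase with gomisin G and 223 with vehicle, and all 3 genes were highest in gomisin G replicate 1 with replicate 2 near vehicle. Their log2 changes were 0.18 (adjusted p = 0.711), 0.33 (adjusted p = 0.443) and 0.34 (adjusted p = 0.396). ATP5MD, a small membrane subunit (current symbol ATP5MK), had the highest log2 change of the complex, 0.48 (SE 0.27, 95% interval -0.13 to 1.09, adjusted p = 0.340). Its values were 107 and 59.8 CPM with gomisin G, against 64.4 and 55.6 CPM with vehicle. ATP5PB, the b subunit of the peripheral stalk, was at 191 and 124 CPM with gomisin G, against 155 and 154 CPM with vehicle, so replicate 1 was above and replicate 2 below both vehicle libraries, with a log2 change of 0.03 (adjusted p = 0.960).

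**Figure D2:**
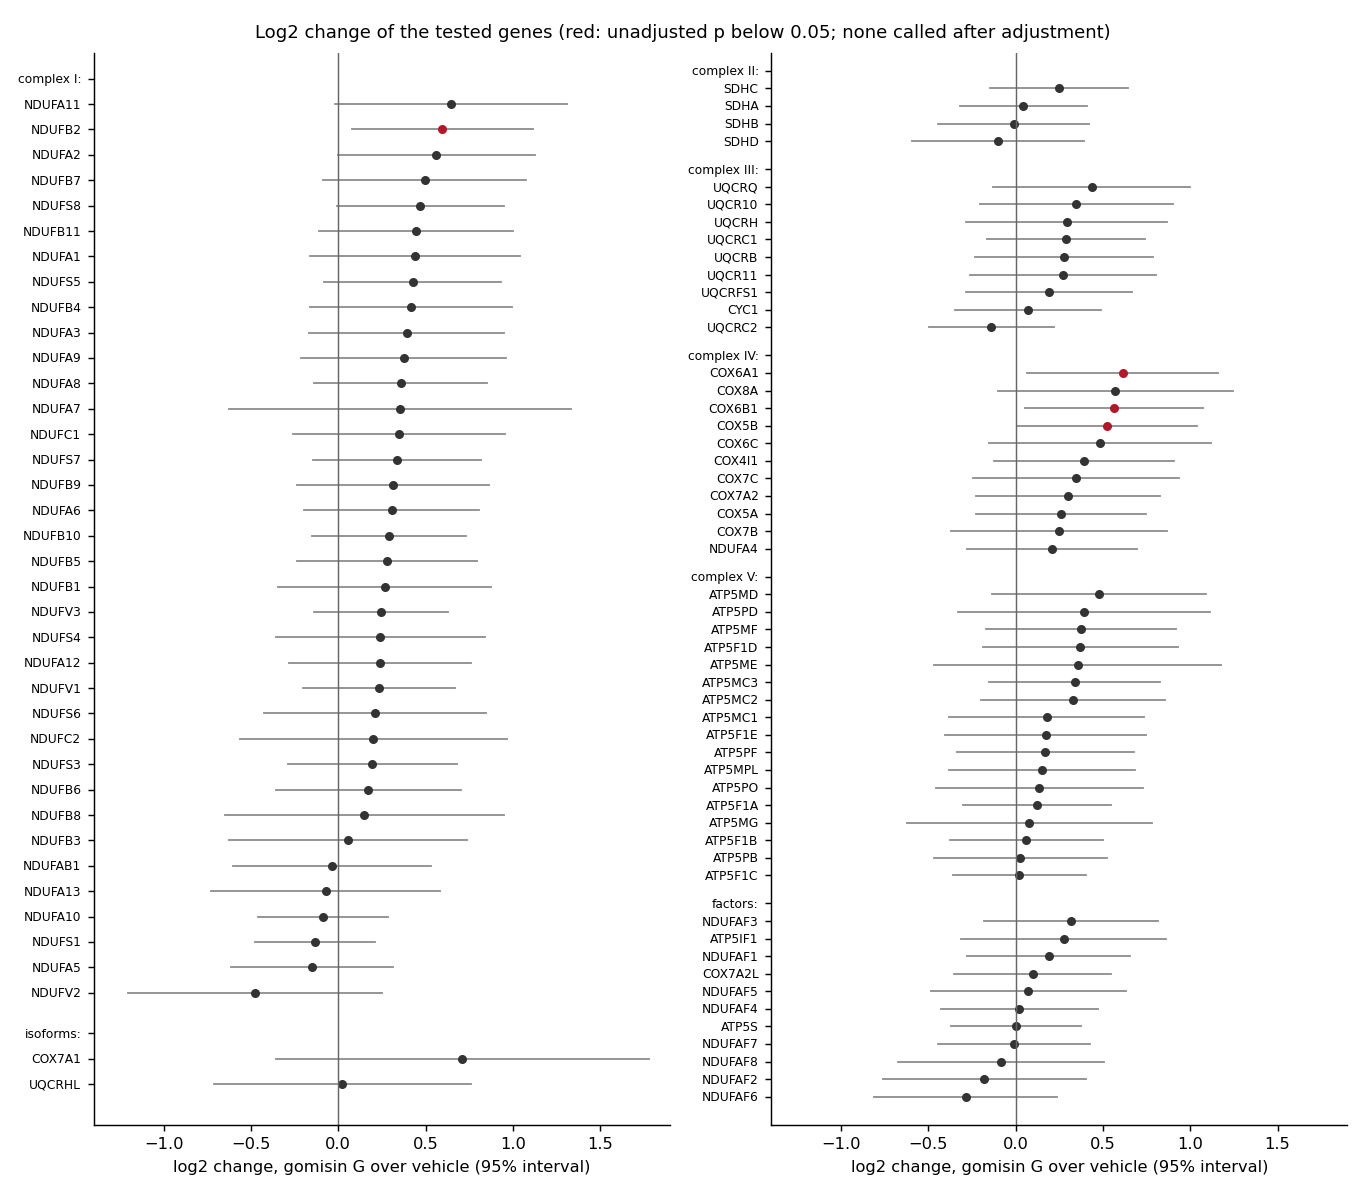
Log2 change of gomisin G over vehicle (points) with its 95% interval (lines) for the tested genes (1 is not drawn), grouped by complex and sorted within each, by edgeR's quasi-likelihood fit. Intervals of 4 genes, NDUFB2, COX6A1, COX6B1 and COX5B, lie above 0 before adjustment over all tested genes, and none was called after it.

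The 11 assembly and regulatory factors had a median log2 change of 0.02, with 6 positive and 5 negative. Gomisin G replicate 1 exceeded replicate 2 in all 11 of them, and the medians of the libraries from the vehicle mean were 0.21 and -0.12. In replicate 1, 10 of the 11 factors were above the vehicle mean, and in replicate 2 only 1 was. Their difference from the subunits was not tested. ATP5IF1, which inhibits ATP hydrolysis by complex V, was at 113 and 80.0 CPM in gomisin G replicates 1 and 2, against 97.5 and 61.7 CPM in vehicle replicates 1 and 2. Its groups overlapped, and the log2 change was 0.27 (SE 0.25, 95% interval -0.31 to 0.86, adjusted p = 0.563). COX7A2L, which helps to join complexes III and IV into supercomplexes, was at 65.3 and 48.9 CPM with gomisin G, against 57.9 and 48.8 CPM with vehicle, a log2 change of 0.10 (adjusted p = 0.813). NDUFAF3, an early assembly factor of complex I, had the highest log2 change of the class at 0.32 (adjusted p = 0.431), on 106 and 68.9 CPM with gomisin G, against 69.7 and 70.3 CPM with vehicle. Only gomisin G replicate 1 stood above the vehicle libraries there. NDUFAF6 had the lowest at -0.29 (adjusted p = 0.498), on 11.5 and 9.22 CPM with gomisin G, against 14.2 and 11.1 CPM with vehicle. The other complex I factors lay between these, and ATP5S (current symbol DMAC2L) was at 29.1 to 29.7 CPM in all 4 libraries.

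The tissue-restricted isoforms and copies were scarcely expressed in either group. Of these 9 genes 7 did not pass the expression filter. COX8C, COX6A2 (the heart and muscle form of subunit 6A) and COX7B2 had 0 counts in all 4 libraries, which allows up to 0.189 to 0.207 CPM each. COX4I2, the lung-enriched form of subunit 4, had 0 and 0 counts with gomisin G and 0 and 2 with vehicle, and ATP5MGL had 0 and 1 with gomisin G and 0 and 0 with vehicle. COX6B2, known from testis, had 6 and 9 counts with gomisin G and 1 and 2 with vehicle. COX6B2 shares all its coding bases with another annotated gene on its strand, and it was not tested. NDUFA4L2, a hypoxia-inducible relative of NDUFA4, had 8 and 6 counts with gomisin G and 17 and 6 with vehicle. The pair that was tested consisted of COX7A1, the muscle form of subunit 7A, and UQCRHL, an intronless copy of UQCRH. COX7A1 was at 1.45 and 1.14 CPM with gomisin G, against 0.828 and 0.740 CPM with vehicle. These were 21 and 18 counts with gomisin G and 12 and 11 with vehicle, and the log2 change of 0.71 (SE 0.46, 95% interval -0.36 to 1.78, adjusted p = 0.413) was the highest of all 91 tested genes. UQCRHL was at 4.90 and 3.03 CPM with gomisin G, against 3.66 and 4.11 CPM with vehicle, a log2 change of 0.02 (adjusted p = 0.975) that was -0.02 with limma voom. Reads of UQCRHL and UQCRH can match both genes, so the UQCRHL value is uncertain.

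Levels were compared between genes only per length, as CPM per kilobase of the median annotated protein-coding transcript. The median gene of complex IV was at 205.3 CPM per kilobase with gomisin G and 138.2 with vehicle, above complex III (163.0 and 134.5), complex V (135.3 and 113.9), complex II (89.4 and 87.9) and complex I (61.1 and 50.7). Assembly and regulatory factors were at 19.1 and 20.7. The spread within each complex was wide, so these medians stand for distributions that overlap. By single gene in the vehicle libraries, ATP5F1B was highest, at 549.7 CPM per kilobase with gomisin G and 528 with vehicle. ATP5F1D followed at 479 CPM per kilobase with gomisin G and 371 with vehicle, ATP5F1A at 369 CPM per kilobase with gomisin G and 339.7 with vehicle, and COX4I1 at 374 CPM per kilobase with gomisin G and 285 with vehicle. In complex I the highest was NDUFS8, at 304 CPM per kilobase with gomisin G and 219 with vehicle, in complex II SDHC, at 315 CPM per kilobase with gomisin G and 266 with vehicle, and in complex III CYC1, at 219.5 CPM per kilobase with gomisin G and 209 with vehicle. The highest factor was ATP5IF1, at 169 CPM per kilobase with gomisin G and 139.9 with vehicle. These orders depend on the length used. For SDHC, NDUFS8 and NDUFS3 the median transcript is shorter than the coding sequence (460 bases against 507 for SDHC, 572 against 630 for NDUFS8), so their levels per length are overstated. Per kilobase of coding sequence, a choice added after seeing the data, the complexes kept their order by vehicle median and SDHC was still highest in complex II, while NDUFB2, UQCRQ and COX7C were highest in complexes I, III and IV. Per kilobase of deposited gene length, also added, complex III was above complex IV, and SDHB, NDUFB7 and COX8A were highest in complexes II, I and IV. ATP5F1B and ATP5IF1 were highest in complex V and among the factors under all 3 lengths.

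**Figure D3:**
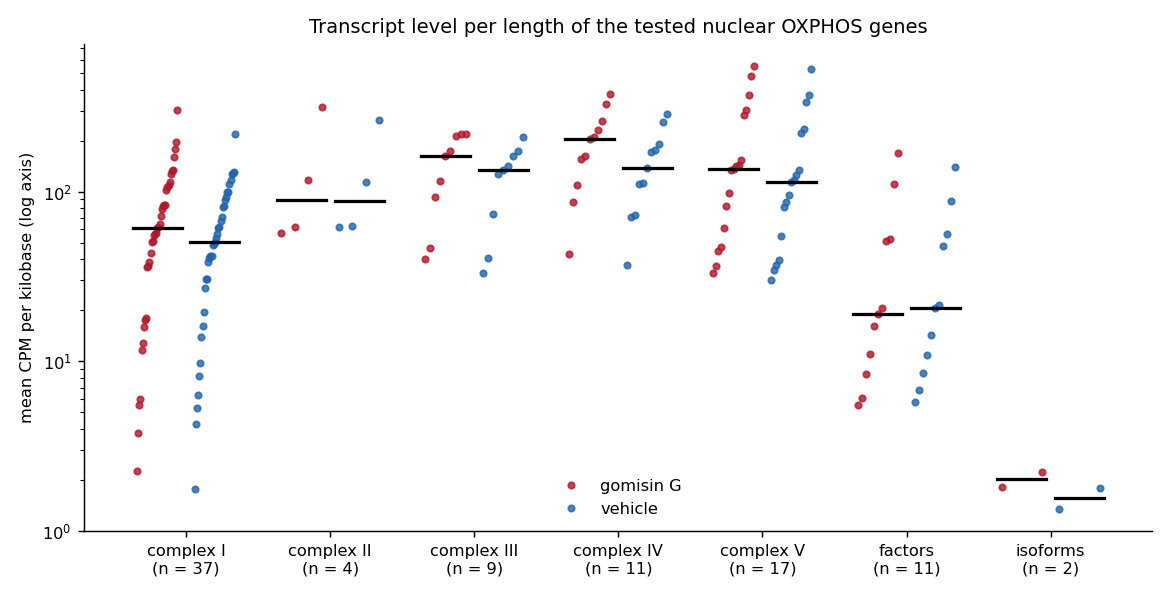
Mean level of each tested gene in CPM per kilobase (log axis), with gomisin G left of vehicle in each class and a bar at the class median. Complexes III, IV and V have medians above 100 in both groups, the assembly and regulatory factors near 20, and the tested isoforms COX7A1 and UQCRHL near 2.

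Several low values belong to genes whose sequence is shared with a neighbouring annotation. In 15 of the 98 genes over 20% of the coding bases are also covered by another gene on the same strand, mostly gene models with a clone or hyphenated name. COX6A1, COX8A and NDUFA11, described above, are among them. In 15 genes an antisense gene overlaps coding bases, for NDUFB2 24.1% of them and for NDUFA2 18.2%, and since strand use in counting is not known these counts are uncertain. Leaving out the isoforms, 14 tested genes of this kind had a median vehicle level of 23.2 CPM per kilobase, and the 75 without such overlap had 82.1. NDUFA7 was at 1.24 and 1.45 CPM with gomisin G, against 0.966 and 1.14 CPM with vehicle, or 2.24 CPM per kilobase with gomisin G and 1.75 with vehicle, the lowest of complex I. NDUFA13 was at 3.94 and 5.93 CPM with gomisin G, against 5.38 and 5.05 CPM with vehicle. The sources used here do not give the handling of reads that fall in more than 1 gene, and its part in these levels was not tested. Without the 15 genes the median log2 change over 77 tested genes was 0.26, as over all 91. Named pseudogenes exist for 47 of the 98 genes, with 164 in all. Genes with a named pseudogene had a median log2 change of 0.27 (n = 47) and genes without had 0.24 (n = 44).

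Nuclear oxidative phosphorylation genes have short transcripts, and log2 change was related to transcript length across the whole data set. The median length was 761 bases for the 91 genes and 2268 bases for all tested genes. Over all 15721 tested genes the Spearman correlation of log2 change with length was -0.30, and over the 91 it was -0.46. These are correlations across genes, which are not independent replicates and share the same 4 libraries. For the difference of each gomisin G library from the vehicle mean, the correlation over all tested genes was -0.41 and -0.09 in replicates 1 and 2. Replicates of the same group also differed along length. For replicate 1 minus replicate 2 the correlation was -0.24 with vehicle and -0.46 with gomisin G over all tested genes. Over the 91 genes it was -0.40 with vehicle and -0.43 with gomisin G. Among the 3932 tested genes with transcripts of up to 1384 bases the median log2 change was 0.18, and 67 of the 91 genes were of this length, with a median of 0.30. The next 3932 genes, of up to 2268 bases, had a median of 0.11, and the 18 oxidative phosphorylation genes among them one of 0.05. When a smooth trend on transcript length was removed from each library, an alternative chosen after seeing the data, the median of the 91 genes was 0.08, with 59 positive and 0 called, where 8.68% of all tested genes were called. With a trend on deposited gene length removed it was 0.12, with 66 positive and 0 called, where 5.78% of all tested genes were. Complex IV then had 0.18 (transcript length) and 0.27 (gene length), again the highest of the complexes, and complex II had -0.11 and -0.001 in the same order.

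**Figure D4:**
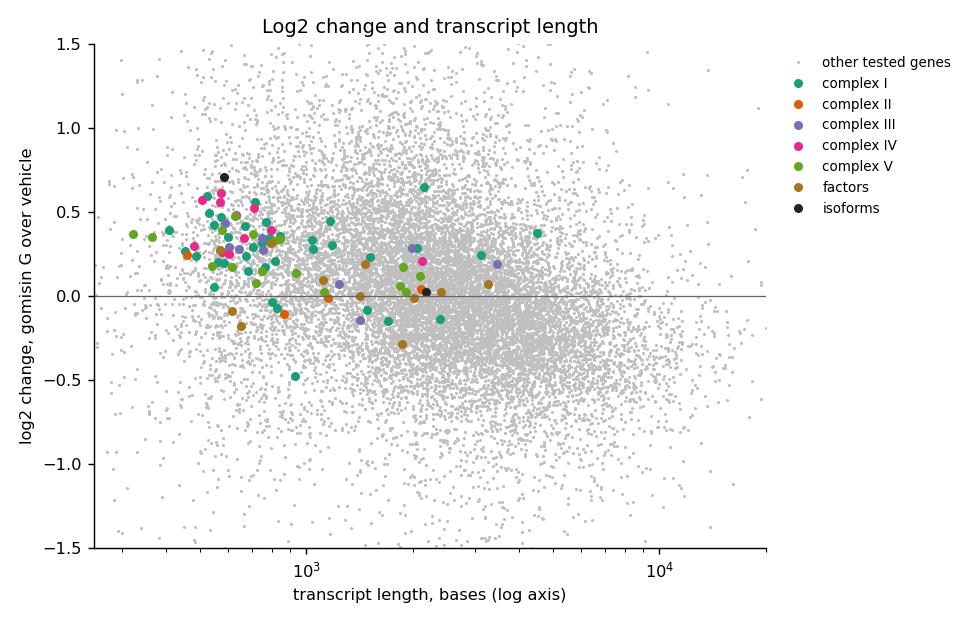
Log2 change of gomisin G over vehicle against transcript length in bases (log axis), with nuclear oxidative phosphorylation genes coloured by class over the other tested genes in grey. Grey points beyond the axes are not drawn. Most coloured points lie at the short end, around a median of 761 bases, and 77 of 91 lie above 0.

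Other genes of the pathway were read from the same test. EdgeR called 0 in each of these lists of 3 to 24 genes, where 1.83% of all tested genes were called. Assembly factors of complex IV had a median log2 change of 0.05 (14 of 24 positive), those of complex I outside the NDUF names -0.04 (5 of 11), those of complexes II and III 0.09 (8 of 10), and those of complex V 0.01 (2 of 3). Genes of the tricarboxylic acid cycle had a median of -0.16 (3 of 13 positive), and electron carriers and other dehydrogenases that feed ubiquinone one of -0.09 (6 of 14). CYCS, which encodes cytochrome c, was at 170.5 and 115 CPM with gomisin G, against 185 and 153 CPM with vehicle, a log2 change of -0.24 (SE 0.22, 95% interval -0.74 to 0.25, adjusted p = 0.546). The 78 subunits of complexes I to V had a median of 0.28, and its difference from these lists was not tested.

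Regulators of respiratory genes had a median log2 change of -0.13 over 14 tested genes, of which 9 were negative. In 7 of the 14 both gomisin G libraries lay below both vehicle libraries, a larger share than the 27.3% of all tested genes. That difference was not tested. Another 4 of the 14 (28.6%) had both above, as 27% of all tested genes did. Their transcripts are long, with a median of 3358 bases, and the median log2 change of all tested genes was -0.02 between 2268.5 and 3637.5 bases and -0.21 beyond that length. With the transcript length trend removed the median of the regulators was -0.09. PPARGC1B, a coactivator of mitochondrial biogenesis, was at 4.56 and 7.13 CPM in gomisin G replicates 1 and 2, against 11.2 and 16.0 CPM in vehicle replicates 1 and 2. PPRC1, its relative, was at 53.7 and 70.1 CPM with gomisin G, against 95.6 and 106 CPM with vehicle. TFAM, which packages mitochondrial DNA and helps to start its transcription, was at 54.9 and 53.8 CPM with gomisin G, against 80.7 and 75.9 CPM with vehicle. The groups did not overlap in any of the 3, and both gomisin G libraries were low. The log2 changes were -1.21 (SE 0.29, 95% interval -1.88 to -0.54, adjusted p = 0.0785), -0.70 (SE 0.18, 95% interval -1.12 to -0.28, adjusted p = 0.0907) and -0.53 (SE 0.15, 95% interval -0.88 to -0.17, adjusted p = 0.116), all short of the threshold by edgeR. DESeq2 called PPARGC1B (adjusted p = 0.0132) and PPRC1 (adjusted p = 0.0259) lower, where it called 2.75% of all tested genes lower. With limma voom none of the 3 was called (adjusted p = 0.0862, 0.0923 and 0.120). With the transcript length trend removed edgeR called all 3, at log2 changes of -1.09, -0.53 and -0.47 (adjusted p = 0.0329, 0.0278 and 0.0478). In that setting, which was chosen after seeing the data, 4.27% of all tested genes were called lower. With the gene length trend removed edgeR called PPARGC1B and PPRC1 (adjusted p = 0.0469 and 0.0431) but not TFAM (adjusted p = 0.0661). The log2 changes there were -0.99, -0.64 and -0.48, and 2.89% of all tested genes were called lower. GABPA, the ETS factor whose letters are marked above, was at 31.4 and 33.4 CPM with gomisin G, against 42.1 and 38.6 CPM with vehicle, a log2 change of -0.31 (adjusted p = 0.312). NRF1 was at 24.4 and 21.6 CPM with gomisin G, against 26.1 and 24.7 CPM with vehicle, a log2 change of -0.14 (adjusted p = 0.670). PPARGC1A, the best-known coactivator, was at only 2.14 and 3.22 CPM with gomisin G, against 1.31 and 1.68 CPM with vehicle, with a log2 change of 0.84 (adjusted p = 0.259).

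Transcripts of the mitochondrial genome and of ribosomal proteins were set beside the nuclear subunits. The 13 mitochondrially encoded protein genes made up 8.21% and 6.61% of counts with gomisin G, against 5.84% and 6.86% with vehicle, and their median log2 change was 0.24. MT-ND4L had the lowest, -0.69 (adjusted p = 0.209). Gomisin G replicates 1 and 2 had medians of 0.43 and 0.004 from the vehicle mean, and replicate 1 exceeded replicate 2 in 10 of the 13, as in most of the 91 nuclear genes. The order of the vehicle libraries differed from that of the nuclear genes. Vehicle replicate 2 exceeded replicate 1 in 10 of these 13, opposite to most of the 91 nuclear genes. Cytosolic ribosomal protein genes, whose transcripts are also short (median 764 bases), had a median log2 change of 0.23 over 81 tested genes, with 0.49 and -0.11 in gomisin G replicates 1 and 2. Mitochondrial ribosomal protein genes (median 1147 bases) had 0.11 over 77, with 0.31 and -0.16 in these libraries. All 3 nuclear lists had their median above the vehicle mean in the first gomisin G library and below it in the second. EdgeR called 0 genes in each, where 1.83% of all tested genes were called.

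**Figure D5:**
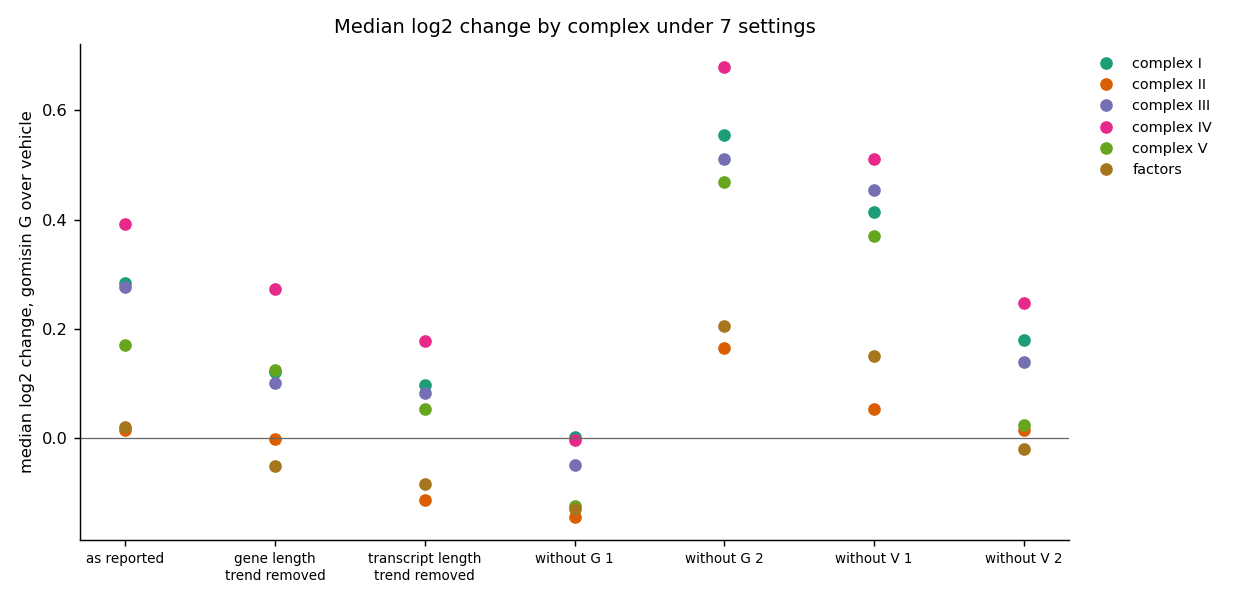
Median log2 change of gomisin G over vehicle for each complex and for the assembly and regulatory factors, as reported and under 6 other settings that remove a length trend or leave out 1 library. Complex IV is 0.39 as reported, 0.18 with the transcript length trend removed, -0.003 with G 1 left out and 0.68 with G 2 left out.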

How the data were processed

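Gene expression was measured by RNA-seq in 4 libraries of SW1990 cells. Per the labels' protocols, ribosomal RNA was removed from total RNA when libraries were made. The authors deposited un-normalized read counts for each gene, and, per the submitters' processing notes, fastp, HISAT2 and featureCounts were used with the build hg38 (versions and settings not named). Strand use and the handling of reads that match several places are not given in the sources used here. Antisense partners, overlapping genes and close copies cannot be told apart. Between the whole-series table and the 4 tables of single samples, 0 values differed. No per-sample column was left without a sample (0 such columns).

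Counts were tested with edgeR 4.0.16 (R 4.3.3): default filter by group, TMM factors, robust quasi-likelihood F test, treatment as the only term. All 15721 tested genes were fitted together and p-values adjusted by Benjamini-Hochberg over all of them, with a threshold of 0.05. Fold changes are log2 of gomisin G over vehicle. The fit was tested on simulated data before use. Alternatives were other scaling factors and filters, DESeq2 1.42.0, limma voom 3.58.1, a replicate block, removal of a loess trend (span 0.3) on gene or transcript length per library, and leaving out each library. Coordinates and transcript lengths are those of GENCODE 29, whose coordinates equal the deposited ones for all 98 genes. Promoters are RefSeq windows (GRCh38.p14).

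The genes and lists were chosen with earlier results of these data known. Named genes are, in each class, the highest and lowest log2 change and the highest vehicle level per length, a fixed list of well-known subunits, genes below the filter, called genes of the other lists and 7 regulators and carriers. NDUFA2, NDUFA5, NDUFA7, NDUFA10, NDUFA13, NDUFAB1, NDUFAF8, NDUFB2, NDUFB7, NDUFS3, NDUFV2, COX6C, COX7C, ATP5PB, ATP5S, ATP5F1D and MT-ND4L, where the rule did not name them, were chosen after their values were seen. Values of 1 oxidative phosphorylation gene and 1 marker are not reported here by name.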

Additional observations from a re-analysis of the deposited data

How the results depend on the processing

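Limits: 2 libraries a group leave 2 residual degrees of freedom, the gomisin G replicates differ in most of these genes, and library differences run with transcript length. No called oxidative phosphorylation gene was found with TMM, RLE or upper-quartile factors, with no filter or at least 50 counts in 2 libraries, with DESeq2, limma voom or the legacy fit, with either length trend removed, or without either vehicle library. Over all genes the count of 287 was 883 with DESeq2, 909 with the gene length trend removed and 1364 with the transcript length trend removed (chosen after seeing the data). Leaving out 1 library in turn gave 135 to 6322 genes in all, and 0 to 64 oxidative phosphorylation genes called higher and 0 to 4 called lower. The labels number replicates 1 and 2 in both groups without saying that a number is shared. With that number as a replicate block edgeR called 2886 genes (18.4%), of which 1408 higher (8.96%), and 10 of the 91 oxidative phosphorylation genes (11%), all higher (COX5B, COX6A1, COX6B1, COX6C, COX8A, NDUFA11, NDUFA2, NDUFB2, NDUFB7 and NDUFS8), a share close to that of all tested genes. PPARGC1B, PPRC1 and TFAM were called lower there, where 9.4% of all tested genes were. Same-numbered libraries deviated together with a correlation of 0.26 over all tested genes and 0.50 over the 91.

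The median over the tested oxidative phosphorylation genes (89 to 95 by setting) was 0.23 to 0.32 under the settings that keep all libraries and remove no length trend. For 62 single genes the log2 change was recomputed 865 times, and 728 of these values kept their direction and their side of the threshold. The sign changed in 67, which were counted only as such, whether or not they also passed the threshold. With the sign kept, 68 came past the threshold (14 with the block and most others with 1 library left out) and 2 dropped below it. Where the sign turned with all libraries kept, with DESeq2 it was 0.00120 for ATP5S; with RLE factors it was 0.00119 for ATP5S; with at least 50 counts in 2 libraries it was 0.00348 for SDHB and 0.0170 for ATP5S; with the gene length trend removed it was -0.16 for CYC1, -0.17 for ATP5F1C, -0.13 for ATP5F1B, -0.19 for UQCRHL, 0.11 for NDUFS1, 0.0518 for NDUFA5, 0.10 for NDUFA10, -0.0737 for ATP5PB and 0.22 for ATP5S; with limma voom it was -0.0191 for UQCRHL and -0.00657 for ATP5PB; with the replicate block it was -0.00640 for ATP5PB; with the transcript length trend removed it was -0.11 for CYC1, -0.17 for ATP5F1C, -0.0457 for ATP5F1B, -0.0327 for UQCRHL, -0.0209 for SDHA, -0.0931 for COX7A2L, -0.0235 for ATP5MC1 and -0.0728 for ATP5PB; with upper-quartile factors it was 0.0482 for SDHB, 0.0293 for NDUFAB1 and 0.0584 for ATP5S. Leaving out 1 library in turn, the log2 changes that turned among these 62 genes had these ranges: NDUFAF3 -0.0265 to 0.59, CYC1 -0.13 to 0.25, NDUFA4 -0.11 to 0.47, ATP5MD -0.00683 to 0.84, ATP5F1C -0.13 to 0.16, ATP5F1B -0.0851 to 0.19, UQCRHL -0.36 to 0.34, SDHA -0.0384 to 0.12, UQCRFS1 -0.12 to 0.45, UQCRH -0.13 to 0.62, COX5A -0.0670 to 0.53, COX7A2 -0.0840 to 0.60, COX7A2L -0.13 to 0.29, COX7B -0.26 to 0.62, ATP5F1A -0.0190 to 0.25, ATP5F1E -0.20 to 0.47, ATP5MC1 -0.21 to 0.48, ATP5MC2 -0.0600 to 0.63, NDUFA13 -0.40 to 0.18, COX6C -0.00257 to 0.85, COX7C -0.0908 to 0.68, ATP5PB -0.32 to 0.31, ATP5F1D -0.0488 to 0.69, SDHD -0.40 to 0.14, SDHB -0.25 to 0.19, NDUFA5 -0.37 to 0.0403, NDUFA10 -0.22 to 0.0325, NDUFAB1 -0.45 to 0.29, NDUFAF8 -0.42 to 0.19, ATP5S -0.0146 to 0.00902, CYCS -0.55 to 0.0137, and ATP5IF1 -0.0195 to 0.64. The cause was not tested.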
